A study of Mus musculus with 6 samples.

Results

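From the 55487 genes of the count table, 5 genes of cardiac impulse conduction were chosen by name. They are the sodium channel subunit genes Scn3b and Scn4b and the gap junction genes Gja1, Gja5 and Gjc1. The libraries came from primary ventricular cardiomyocytes of wild-type mouse pups at postnatal day 1 or 2, from which fibroblasts had been removed with CD90 antibodies. The cells grew on fibronectin in serum-containing medium for 12 h and were then treated for 48 h with 1 of 3 agents: the solvent DMSO, 5 µg/ml cyclopamine, or 3 µM GANT61. Cyclopamine blocks Smoothened, the membrane transducer of Hedgehog signalling. GANT61 acts further down, on the GLI transcription factors. The study asked what inhibition at these 2 levels does to postnatal cardiomyocytes. The labels give 2 samples per group, but the table holds 1 column of counts per group, and the labels do not say whether a column is 1 replicate or a pool, or how many pups gave the cells. The differences below therefore have no replicate check and no p-value, and the doses, given in different units, are not matched. Both inhibitor comparisons use the same DMSO library.

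The electrical impulse of the heart needs an inward sodium current to depolarize each cell and gap junctions to pass the current to the next. Voltage-gated sodium channels consist of a large pore-forming alpha subunit and smaller beta subunits, such as those encoded by Scn3b and Scn4b, which alter gating and surface expression. Gap junction channels are built from connexins. Gja1 encodes Cx43, the main connexin of working ventricular muscle. Gja5 encodes Cx40, found in atrial muscle, the fast-conducting ventricular bundles and arterial endothelium. Gjc1 encodes Cx45, the connexin of the nodes and of the early embryonic heart.

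The 3 libraries held 35461530 to 38966515 counts, and 15576 genes passed a filter on low counts. Mitochondrially encoded genes took 5.02% to 6.42% of the counts. Levels are given as raw counts, as CPM, the counts scaled by TMM to a common library size, and, between genes, as CPM per kilobase of annotated exon (RPKM). The words "higher by size" and "lower by size" stand for a difference of at least 1.5-fold whose exact 95% counting interval excluded no difference. These intervals cover counting error and not the variation between cultures. Cardiomyocyte identity was checked on the 10 markers of the ventricular list, each of which had at least 44800 counts in every library. High counts of these do not by themselves tell ventricular from atrial cardiomyocytes. Those markers summed to 56873 to 67530 CPM. Markers of other cells were present too. Atrial markers summed to 11114 to 13758 CPM, smooth muscle and pericyte markers to 1997 to 3090, fibroblast markers to 952 to 1400, endothelial markers to 117 to 145, epicardial markers to 75.7 to 150.1, macrophage markers to 8.52 to 15.9 and nerve and glia markers to 13.7 to 27.4, with Snap25 at 0 counts in the 3 libraries. The atrial sum is mostly the level of 1 gene, Nppa, at 13052 CPM in DMSO, 10760 in cyclopamine and 10709 in GANT61. Other atrial markers were far lower, with Myl4 at 237 to 486 CPM, Sln at 7.79 to 9.56 and Kcna5 at 1, 0 and 0 counts. Thy1, the gene of the depleted antigen CD90, had 3050 counts with DMSO, 2834 with cyclopamine and 1207 with GANT61.

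Promoter sequences are shown for the 2 connexin genes that were expressed and had an entry in the RefSeq promoter table (GRCm38.p6), because both treatments act on a transcription factor pathway. Each is the 250 bases before the start used in that promoter table, 5′ to 3′ on the plus strand. This start differs from the GENCODE gene positions given below. The Gja5 window lies inside the GENCODE model, which begins at 96904693, and the Gja1 window ends before the GENCODE start at 56377330. Capitals mark matches to any of 5 motifs searched on both strands, GLI (GACCACCCA), T-box (GGTGTGA), NKX2-5 (AAGTG), AP-1 (TGANTCA) and the GC box (GGGCGG).
Gja1 (chr10:56377050-56377299): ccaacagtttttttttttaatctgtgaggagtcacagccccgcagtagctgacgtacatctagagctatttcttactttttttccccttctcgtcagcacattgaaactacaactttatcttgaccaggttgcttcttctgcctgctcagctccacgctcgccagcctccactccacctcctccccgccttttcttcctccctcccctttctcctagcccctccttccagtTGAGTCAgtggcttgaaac
Gja5 (chr3:97032152-97032401): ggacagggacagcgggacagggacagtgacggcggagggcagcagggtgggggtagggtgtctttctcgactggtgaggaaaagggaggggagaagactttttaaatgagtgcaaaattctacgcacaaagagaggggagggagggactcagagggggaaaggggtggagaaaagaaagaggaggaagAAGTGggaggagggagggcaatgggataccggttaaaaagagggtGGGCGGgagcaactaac

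The Gja1 window held an AP-1 match, TGAGTCA, at 19 to 13 bases before the start, and 6.75% of 32851 promoter windows of this length held that motif. The Gja5 window held an NKX2-5 match at 62 to 58 bases and a GC box at 17 to 12 bases before the start, motifs found in 40.7% and 32.7% of the windows. Neither window held the GLI letters, which 0.225% of the windows did, or the T-box letters, which 3.33% did. A match describes letters in this window and not binding. Scn4b also had an entry, with no match to any of these motifs, and Scn3b and Gjc1 were not among the entries.

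Gja1 stood far above the other connexin genes in each library (chromosome 10, 56377330 to 56402513, GRCm38). Its counts were 61299 with DMSO, 80087 with cyclopamine and 72475 with GANT61, or 1665, 2084 and 2024 CPM. Both inhibitor libraries were above DMSO and lay close to each other. Per length, Gja1 was at 162 RPKM in DMSO, 203 in cyclopamine and 197 in GANT61, which placed it 253rd, 201st and 210th among all genes of the table. Its log2 fold change was 0.32 (counting interval 0.31 to 0.34) in cyclopamine and 0.28 (0.27 to 0.30) in GANT61, and -0.04 (-0.06 to -0.03) in GANT61 against cyclopamine. None of these reached 1.5-fold. In either direction 11.4% of all genes were called in cyclopamine and 21.7% in GANT61, and 4.1% and 8.4% were called higher. At a lower threshold of 1.2-fold Gja1 was called higher in both inhibitor libraries, as were 10.5% of all genes in cyclopamine and 19.5% in GANT61. Counted from the highest fold change, it ranked 2105th of 15576 genes in cyclopamine and 3648th in GANT61.

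Gjc1 went the other way and differed most among the connexin genes chosen (chromosome 11, 102799579 to 102819700). The DMSO library held 2422 counts, cyclopamine 1668 and GANT61 950, or 65.8, 43.4 and 26.5 CPM. The GANT61 library was the lowest and cyclopamine lay between it and DMSO. Its log2 fold change was -0.60 (-0.69 to -0.51) in cyclopamine, just past the threshold of 1.5-fold, and -1.31 (-1.42 to -1.20) in GANT61. Between the inhibitors it was -0.71 (-0.83 to -0.59), lower in GANT61. Gjc1 was thus lower by size in each of the 3 comparisons. Among all genes tested, 11.4% were called in either direction in cyclopamine against DMSO (7.27% lower), 21.7% in GANT61 against DMSO (13.3% lower) and 15% in GANT61 against cyclopamine (8.83% lower). In GANT61 Gjc1 ranked 849th from the lowest of 15576 genes, within the lowest 5.45%, and in cyclopamine 1541st, within the lowest 9.89%.

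Gja5 was lower in the GANT61 library and close to DMSO in cyclopamine. DMSO gave 527 counts, cyclopamine 533 and GANT61 384, or 14.3, 13.9 and 10.7 CPM. The log2 fold change was -0.04 (-0.22 to 0.13) in cyclopamine, an interval that includes no difference. In GANT61 it was -0.41 (-0.61 to -0.22), and against cyclopamine -0.37 (-0.56 to -0.18). Both of these excluded no difference without reaching 1.5-fold. At 1.2-fold both were called lower, as were 23% of all genes in GANT61 against DMSO and 17.7% in GANT61 against cyclopamine. The annotated Gja5 model (chromosome 3, 96904693 to 97077416) spans 172724 bases and shares 165 exon bases with Gpr89 on the opposite strand, which had 906, 960 and 1077 counts. Of the 50-base windows of its longest transcript, 21% also occur in Zfp697, which had 289, 406 and 571 counts. The Gja5 counts carry that uncertainty, whereas Gja1, Gjc1, Scn3b and Scn4b shared at most 0.182% of such windows and overlapped no other annotated exon.

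**Figure D1:**
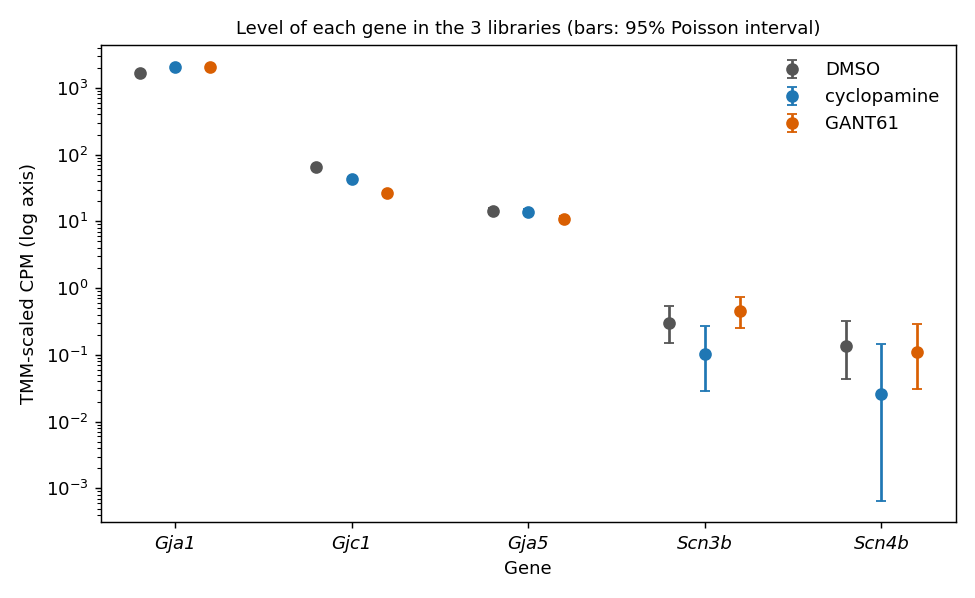
The level of each gene (TMM-scaled CPM, log axis) in the DMSO, cyclopamine and GANT61 libraries, 1 point per library with its 95% Poisson interval. Gja1 lies at 1665 CPM or more in each library, Gjc1 goes from 65.8 to 43.4 and 26.5 CPM, and Scn3b and Scn4b lie below 0.5 CPM with wide intervals.

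The balance between connexins can be read within a library, where scaling does not enter. For every 1000 Gja1 counts there were 39.5 Gjc1 counts with DMSO, 20.8 with cyclopamine and 13.1 with GANT61. The log2 ratio to DMSO was -0.92 (exact conditional interval -1.02 to -0.83) in cyclopamine and -1.59 (-1.70 to -1.48) in GANT61. Gja5 stood at 8.60, 6.66 and 5.30 counts per 1000 Gja1 counts, with log2 ratios to DMSO of -0.37 (-0.55 to -0.19) and -0.70 (-0.89 to -0.51). Relative to Gjc1, Gja5 was higher in both inhibitor libraries, at 320 counts per 1000 Gjc1 counts with cyclopamine and 404 with GANT61, against 218 with DMSO. As a share of the counts of the 20 connexin genes of the table, Gja1 took 93.2% in DMSO (exact Clopper-Pearson interval 93.0% to 93.4%), 95.6% in cyclopamine (95.5% to 95.8%) and 96.9% in GANT61 (96.7% to 97.0%). Gjc1 took 3.68%, 1.99% and 1.27%, and Gja5 0.801%, 0.636% and 0.513%. In the inhibitor libraries the mix was thus shifted towards Cx43 transcripts, most in GANT61.

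**Figure D2:**
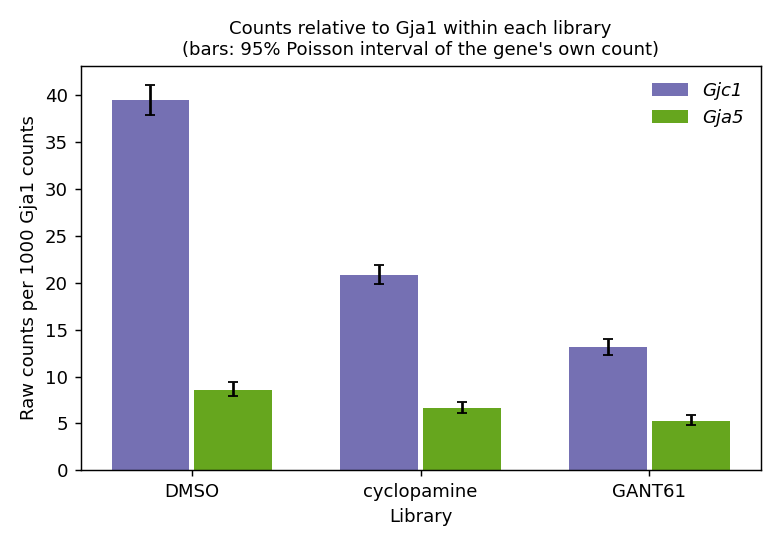
Raw Gjc1 and Gja5 counts per 1000 Gja1 counts in each library; bars start at 0 and error bars are the 95% Poisson interval of the gene's own count. Gjc1 stands at 39.5 in DMSO, 20.8 in cyclopamine and 13.1 in GANT61, while Gja5 goes from 8.60 to 6.66 and 5.30.

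Scn3b and Scn4b, which encode the beta3 and beta4 subunits, were at the edge of detection. Scn3b (chromosome 9, 40269217 to 40291618) was counted 11 times with DMSO (exact Poisson bounds 5.49 and 19.7), 4 times with cyclopamine (1.09 and 10.2) and 16 times with GANT61 (9.15 and 26.0). Cyclopamine was the lowest and GANT61 the highest, and the Poisson intervals of all 3 overlap. The scaled ratio to DMSO was 0.348 in cyclopamine (0.0809 to 1.18) and 1.5 in GANT61 (0.652 to 3.56), so neither was distinguishable from no difference at this depth. Between the inhibitors the ratio was 4.29 (1.38 to 17.6), and with a log2 fold change of 1.66 Scn3b was called higher in GANT61 than in cyclopamine, on 16 against 4 counts. In that comparison 6.16% of all genes were called higher. Scn3b passed the filter through its DMSO and GANT61 counts and not its cyclopamine count, so nothing is read from its call between the inhibitors.

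Scn4b (chromosome 9, 45138395 to 45154152) was counted 5 times with DMSO (1.62 and 11.7), 1 time with cyclopamine (0.0253 and 5.57) and 4 times with GANT61 (1.09 and 10.2). It was the 1 gene of the 5 that did not pass the filter on low counts. Its scaled ratio to DMSO was 0.192 (0.00405 to 1.71) in cyclopamine and 0.823 (0.163 to 3.82) in GANT61. A difference in Scn4b was not detectable at this depth. Its neighbour Scn2b, the beta2 subunit gene, was equally sparse at 6, 6 and 3 counts.

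**Figure D3:**
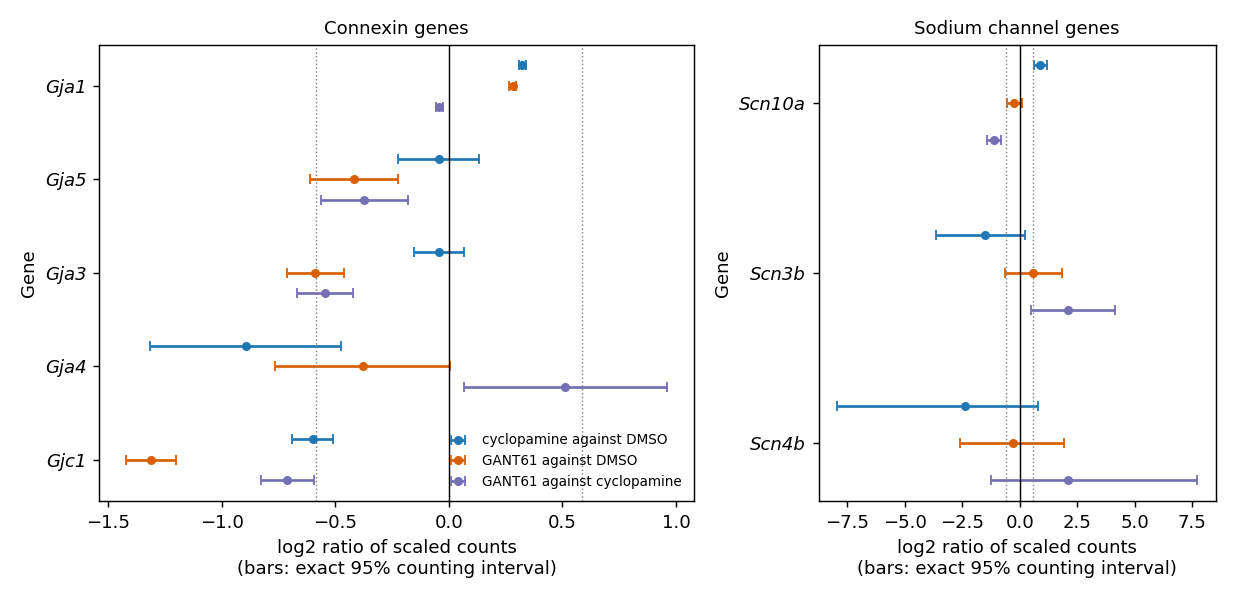
The log2 ratio of scaled counts for connexin genes (left) and sodium channel genes (right, wider axis) in 3 comparisons, with exact 95% counting intervals; dotted lines mark 1.5-fold. Gja1 lies above 0 and Gjc1 below 0 in both comparisons against DMSO, and the intervals of Scn4b span 0 in each comparison.

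The remaining genes of both families were then read beside these. Of 12 other sodium channel genes 10 had a count and 5 passed the filter. In cyclopamine 1 of the 5, Scn10a, was higher by size and 0 lower. In GANT61 0 were higher and 1, Scn7a, was lower. Among all genes tested, the share called higher was 4.1% in cyclopamine and 8.4% in GANT61, and the share called lower was 7.27% and 13.3%. Scn10a encodes an alpha subunit known from sensory neurons and also reported in the heart. It had 166 counts with DMSO, 320 with cyclopamine and 138 with GANT61. Against DMSO this was a log2 fold change of 0.88 (0.61 to 1.16) for cyclopamine and -0.22 (-0.56 to 0.11) for GANT61. Cyclopamine stood apart from the other two libraries, and GANT61 against cyclopamine was at -1.10 (-1.41 to -0.82), lower by size. Scn7a, which encodes a sodium-sensing channel, had 43, 45 and 13 counts and was at -1.55 (-2.70 to -0.76) in GANT61. Scn2a had 45, 48 and 40 counts, and its intervals included no difference in both comparisons against DMSO.

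Of 17 other connexin genes 9 had a count and 4 passed the filter, and 8 had 0 counts in each library, which allows up to 3 counts per library. Gjd3, which encodes a connexin of the mouse atrioventricular node, was among the genes at 0. Gja3, best known as a lens connexin gene, had 1347 counts with DMSO, 1364 with cyclopamine and 872 with GANT61. Like Gja5 it was close to DMSO in cyclopamine, at -0.04 (-0.15 to 0.07), and lower in GANT61, at -0.59 (-0.71 to -0.46). The second value lies on the threshold of 1.5-fold and was not called with DESeq2 size factors (-0.58), library size (-0.58) or no filter (-0.58). Gja4, a connexin gene of arterial endothelium, had 135, 76 and 101 counts and was at -0.87 (-1.32 to -0.47) in cyclopamine, lower by size, and at -0.37 (-0.76 to 0.00453) in GANT61. Gjd4 had 15, 1 and 0 counts. It passed the filter through its DMSO count, so that it could only be lower elsewhere, and nothing is read from its fold change.

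Per length, the order of connexin transcripts in DMSO was Gja1, Gjc1, Gja3, Gja5 and Gja4. Gjc1 at 13.1 RPKM (12.6 to 13.7) and Gja3 at 12.3 (11.7 to 13.0) did not differ beyond counting error, nor did Gja5 at 2.49 (2.28 to 2.71) and Gja4 at 2.18 (1.82 to 2.58). In cyclopamine Gja3 at 12.0 RPKM (11.4 to 12.6) was above Gjc1 at 8.68 (8.27 to 9.10). In GANT61 Gja3 was at 8.22 (7.68 to 8.78) and Gjc1 at 5.30 (4.97 to 5.65). These levels depend on the length used. With the length of the longest transcript, Gja1 was at 428, Gjc1 at 19.3 and Gja3 at 13.2 in DMSO, and Gjc1 and Gja3 were at 12.7 and 12.8 in cyclopamine and 7.77 and 8.80 in GANT61.

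**Figure D4:**
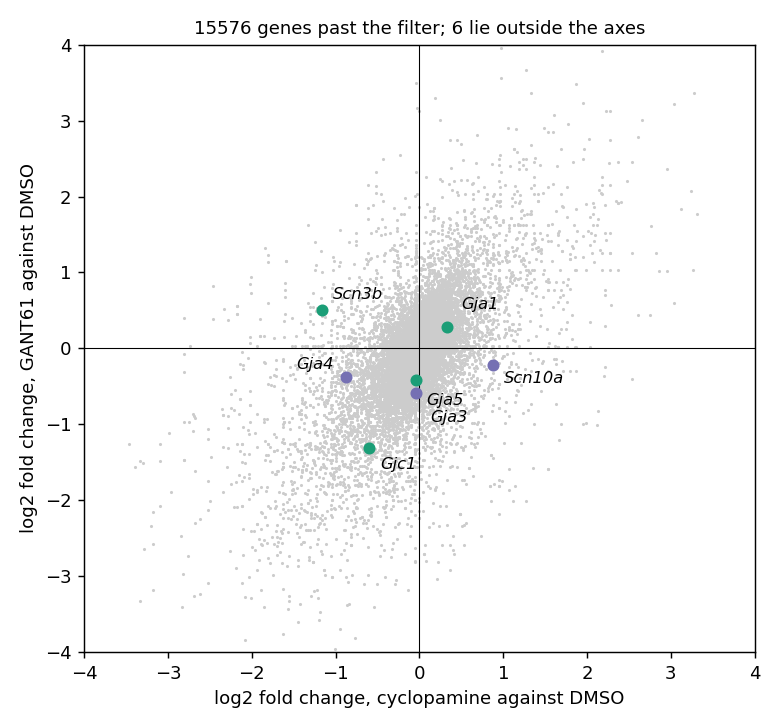
Each grey point is 1 of 15576 genes past the filter, with its log2 fold change in cyclopamine (x) and in GANT61 (y), both against the same DMSO library; 6 genes lie outside the axes. Green marks the chosen genes and purple other genes of the families; Gjc1 lies at -0.60 and -1.31, Gja1 at 0.32 and 0.28, and Scn3b and Scn10a at opposite signs on the axes.

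The genes whose pair of log2 fold changes against DMSO lay nearest to each gene were named by Euclidean distance between the pairs, among 9775 genes of at least 5 CPM on average. For Gjc1 they were Fam131a (-0.61 in cyclopamine and -1.31 in GANT61), the integrin gene Itgb3 (-0.59 and -1.27) and Mmd (-0.56 and -1.34). For Gja1 they were Canx, an endoplasmic reticulum chaperone gene (0.32 and 0.28), Tut4 (0.33 and 0.27) and Smim10l1 (0.33 and 0.27). For Gja5 they were the protocadherin gene Pcdh7 (-0.05 and -0.41), Gpr155 (-0.05 and -0.42) and Ccdc167 (-0.04 and -0.41). Scn3b and Scn4b, which rest on few counts, had no close match. The third nearest gene lay at a distance of 0.493 from Scn3b (Aldh1a1, Simc1 and Lpin3 being the nearest) and 0.36 from Scn4b (Acta1, Arhgap19 and Slc1a1). For Gja1, Gja5 and Gjc1 that distance was 0.0149, 0.00915 and 0.0443. With 3 libraries, such likeness is a description of 2 fold changes.

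Few partners of the channels and junctions differed by size. Of 19 measured partners and regulators of sodium channels, 0 differed by size in cyclopamine, whereas 2 were lower and 0 higher in GANT61, with median log2 fold changes of 0.02 and -0.02. Over all genes tested, 7.27% were lower and 4.1% higher in cyclopamine, and 13.3% lower and 8.4% higher in GANT61, so that 2 of 19 is near the share of all genes. The medians of all genes were -0.00405 and -0.00683, and the partners near that median include members on both sides of it. The lower genes were Kcnj2, which encodes an inward rectifier potassium channel found in complex with sodium channels, at -0.83 (-1.11 to -0.57), and Nedd4l, a ubiquitin ligase gene acting on sodium channels, at -0.65 (-0.72 to -0.58). Fgf12, a gene for an intracellular sodium channel modulator, was at 0.58 and 0.39, and Rangrf, which promotes transport of the channel to the membrane, at 0.04 and 0.55. Of 24 measured genes of the intercalated disc and gap junction partners, cyclopamine had 1 higher and 0 lower, GANT61 had 1 of each, with medians of 0.000198 and 0.00122. Ezr, which links membrane proteins to actin, was higher in both, at 0.61 (0.56 to 0.66) and 0.86 (0.81 to 0.91). Ctnna3, the alphaT-catenin gene of the disc, was at 0.20 in cyclopamine and -0.67 (-0.80 to -0.54) in GANT61. Xirp2, an actin-binding disc protein gene, was at -0.20 and 0.52, and Cxadr, a tight junction receptor gene needed for atrioventricular conduction in mice, at 0.51 and 0.40.

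Some transcription factors and markers of the conduction system were lower, more of them in GANT61. Of 24 measured factors 2 were lower by size in cyclopamine and 6 in GANT61, and 0 were higher by size in either, with medians of -0.01 and -0.28. The count in cyclopamine is near the 7.27% of all genes that were lower there, and 13.3% of all genes were lower in GANT61. Etv1, a factor of fast-conducting myocardium, had 403, 282 and 84 counts in the same order of libraries and was at -0.57 (-0.80 to -0.35) and -2.20 (-2.58 to -1.88). Tbx3, a T-box repressor of the nodes that lowers Gja1 and Gja5 expression in mouse, had 282, 154 and 122 counts and was at -0.93 (-1.23 to -0.65) and -1.16 (-1.49 to -0.86). Tbx20 was at -0.37 and -0.87, and Hopx at -0.02 and -0.68. Other factors lay above DMSO in both without reaching 1.5-fold, among them Gata4 (0.20 and 0.48), Prox1 (0.23 and 0.34) and Tbx18 (0.28 and 0.29). Of 10 markers of conduction system cardiomyocytes, which include Etv1 and Tbx3, 3 were lower in cyclopamine and 7 in GANT61, and 0 were higher in either, with medians of -0.22 and -1.36, beside the same 7.27% and 13.3% of all genes. Their summed level was 351 CPM in DMSO, 318 in cyclopamine and 177 in GANT61. The largest part of each sum was 1 gene, Cacna1g, at 186, 168 and 85.7 CPM, whereas Hcn4 was at 17.1, 7.36 and 1.70. Gjc1 and the summed level of the 10 conduction markers were both lowest in the GANT61 library. Every other marker list except the epicardial one also had its lowest sum there. Of the conduction markers, Id2 was instead highest in GANT61, at 37.5 CPM against 35.0 in DMSO, with an interval that included no difference (-0.015 to 0.21). In cyclopamine Irx3 was above DMSO at 0.21 (0.12 to 0.31), and Cacna2d2 was at 0.44 (-0.00521 to 0.91). Both were at -0.54 in GANT61. A link of Gjc1 to conduction cells was not tested. In bulk RNA, fewer cells of a type and less RNA per cell cannot be told apart.

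**Figure D5:**
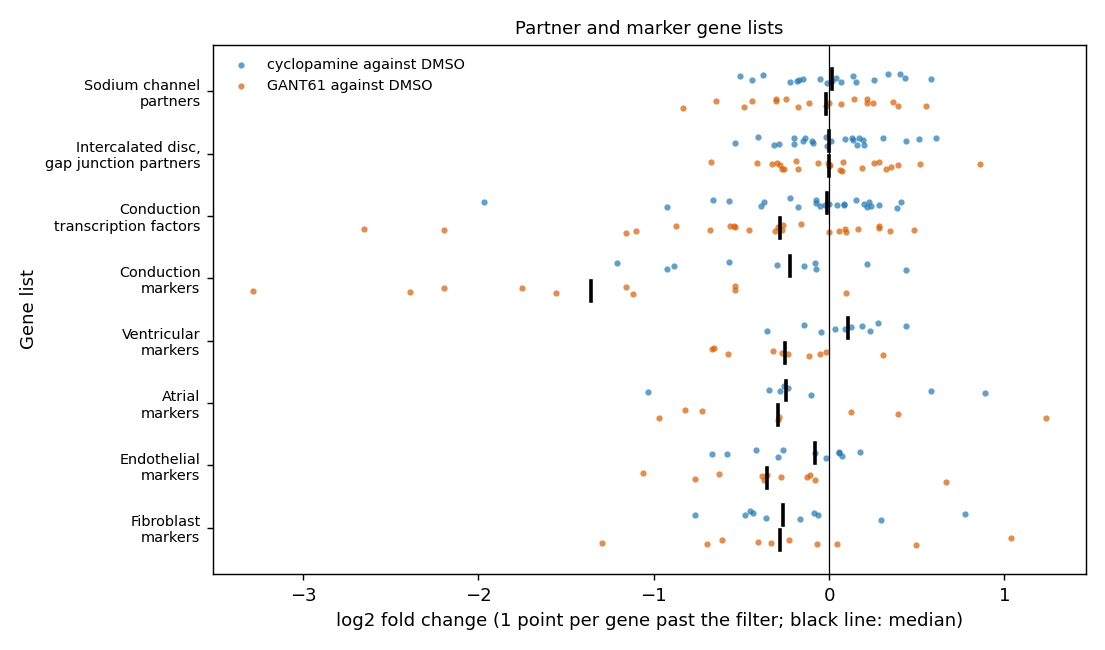
The log2 fold change of each gene past the filter in 3 partner lists and 5 marker lists, in cyclopamine (blue) and GANT61 (orange) against DMSO; points are spread vertically for sight and black lines are medians. The conduction markers have medians of -0.22 and -1.36, while the 2 lists of channel and junction partners have medians within 0.02 of 0.

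Connexin genes are also used by other cells of the heart, whose marker levels follow. For comparison, 7.27% of all genes tested were lower and 4.1% higher in cyclopamine, and 13.3% lower and 8.4% higher in GANT61. The lists are short, and counts of 1 or 2 in them are not read as a shift of the cell type. The summed level of 12 endothelial markers was 145 CPM in DMSO, 138 in cyclopamine and 117 in GANT61 (medians -0.08 and -0.35, with 0 and 2 of 11 measured lower by size). For 10 fibroblast markers it was 1400, 1070 and 952 CPM (medians -0.26 and -0.28, 1 higher in each and 1 and 3 lower). Smooth muscle and pericyte markers summed to 3090, 2142 and 1997 CPM (medians -0.25 and -0.44, with 2 and 0 of 9 higher and 2 and 3 lower). Atrial markers summed to 13758, 11187 and 11114 CPM (medians -0.25 and -0.29, with 1 of 8 higher in each and 1 and 3 lower). Nppa made up most of each of these sums, at 13052, 10760 and 10709 CPM. Epicardial and mesothelial markers summed to 75.7, 78.2 and 150.1 CPM (medians -0.03 and 2.17, with 3 and 8 of 9 higher and 0 lower), with Upk3bl at 0 counts in the 3 libraries. Ventricular markers summed to 67530, 64483 and 56873 CPM, with medians of 0.11 in cyclopamine and -0.25 in GANT61 and 0 and 2 of 10 lower by size. The part of these cell types in the values of Gja4, Gja5 and Gjc1 was not tested.

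The authors' deposited table of higher genes lists Gja1, with a ratio of 1.24 between the unscaled mean count of both inhibitor libraries and DMSO. The authors' deposited table of lower genes lists Gjc1 at a ratio of 0.540 and Scn4b at 0.5. Scn3b and Gja5 are in neither, and their ratios computed in the same way were 0.909 and 0.870. With scaled counts the ratios were 1.23 for Gja1, 0.532 for Gjc1 and 0.859 for Gja5. The entry for Scn4b rests on 5, 1 and 4 counts, and 6862 of the 13073 genes in the authors' deposited table of both directions had under 10 counts in DMSO.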

How the data were processed

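RNA was measured in 3 libraries, 1 each for DMSO, cyclopamine and GANT61. The labels' protocols name a stranded mRNA library kit, and the submitters' processing notes name Trimmomatic 0.33, FastQC, HISAT2 2.1.0, featureCounts and GRCm38 without role or order. The sources used here do not give the strand setting or the annotation used in counting. The authors deposited raw, unnormalized counts for each gene, and these are the values used. Beside them the authors deposited mean counts of both inhibitor columns, which are treated as estimated counts because not all are whole, and lists of genes that changed by at least 1.2-fold in those means.

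Counts were filtered with filterByExpr of edgeR 4.0.16 (15576 genes) and scaled with TMM factors, and log2 CPM values were taken using 2 as the prior count (R 4.3.3). Intervals are exact conditional binomial intervals on the counts. With 1 column per group no test was made. Of the gene IDs, 55227 matched GENCODE mouse release M21 (GRCm38), which gave positions and exon lengths. On simulated counts of cyclopamine against DMSO with counting noise alone over 15576 genes, the size rule recovered 88 of the 100 genes set to 2-fold and 97 of the 100 set to 4-fold, and it called 120 of the 15376 left as they were. DESeq2 1.42.0 gave size factors for an alternative.

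The genes and lists were chosen with earlier results of these data known. Named by rule were other family genes with at least 50 counts in a library, up to 4 genes per list of at least 5 CPM with the largest change, and 3 genes nearest in pattern. Genes below 50 counts, Gata4, Prox1, Tbx18, Cacna1g, Cacna2d2, Irx3, Gjd3, Snap25, Upk3bl, Gpr89 and Zfp697 were picked once values were known. A few sodium channel genes meeting the rule are not reported here.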

Additional observations from a re-analysis of the deposited data

How the results depend on the processing

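The directions of the called values of Gjc1 and Scn3b held under DESeq2 size factors, library size alone, an unfiltered table, a 5 CPM minimum in 2 libraries (Gjc1) and a prior count of 0.5. These settings reuse the same counts, so a held direction is no replicate check. Nothing is read from the Scn3b call, which rests on 16 against 4 counts. At 2-fold Gjc1 was not called in cyclopamine against DMSO or in GANT61 against cyclopamine. Gja1 moved by more than its narrow counting interval under some settings. With library size alone it was at 0.30 in cyclopamine and -0.00810 in GANT61 against cyclopamine. With the 5 CPM filter it was at 0.31 in cyclopamine and 0.26 in GANT61. Both settings change the scaling factor of a library, which all its genes share. Library size alone took the median of all genes in cyclopamine from -0.00405 to -0.0303. The number of genes called in cyclopamine against DMSO, GANT61 against DMSO and GANT61 against cyclopamine was 1771, 3378 and 2335. It was 447, 1460 and 753 with the 5 CPM filter, which tests fewer genes, 3831, 6616 and 5209 at 1.2-fold, and 952, 1820 and 1141 at 2-fold. Of the 7 connexin and 6 sodium channel genes past the filter, 4, 4 and 4 were called in these comparisons. The share of all genes called was 11.4%, 21.7% and 15%. Gjd4, from which nothing is read, was among those called in both comparisons against DMSO. The 5 CPM filter left 1, 2 and 1, the 2-fold rule gave 1 in cyclopamine, and the 1.2-fold rule gave 8 in GANT61 against DMSO and 8 in GANT61 against cyclopamine. Scn3b and Scn4b did not pass the 5 CPM filter. The length of the longest transcript, an alternative chosen after seeing the data, raised the DMSO levels per length to 428 for Gja1, 19.3 for Gjc1, 3.90 for Gja5 and 13.2 for Gja3. It left the order of Gjc1 and Gja3 in each library as it was but changed the gap between them. In cyclopamine Gjc1 and Gja3 then lay close together, at 12.7 and 12.8. No paired analysis was possible because each group has a single column of counts, and for the same reason no replicate could be left out. Depth limits Scn3b and Scn4b, each at 16 counts or fewer.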
